A study of Papilio xuthus with 16 samples.

Results

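A set of 36 sequences of the swallowtail butterfly Papilio xuthus was brighter in black than in pale larval epidermis, and none of them carried the family names left out here, such as yellow, laccase, takeout or cuticular protein. They were chosen from 3272 sequences with an AK identifier, among 3380 P. xuthus sequences on the array. A sequence was taken when at least 1 of its probes had a mean black signal over 1000 and more than 2 times its mean pale signal, over the 6 third-instar or the 10 fourth-instar arrays. The rule was passed by 41 AK sequences, and 5 were left out for their names, namely 3 cuticular proteins, a takeout/JHBP like protein and yellow-h3. No sequence had to be left out for a probe that was as much brighter in the pale region (0 sequences). Of the 36 members, 19 passed on the third-instar arrays only, 14 on the fourth-instar arrays only and 3 on both.

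Young larvae of this species resemble bird droppings in black and white, and the last instar is green with an eyespot and V-shaped markings. Each new pattern is laid down in the epidermis during the molt that precedes it. The epidermal cells secrete the cuticle, and black cuticle is made by enzymes and secreted proteins that turn tyrosine derivatives into melanin, among them yellow and laccase2.

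Each of the 16 two-colour arrays compared a black (Cy5) with a pale (Cy3) piece of epidermis of 1 stage. In the third instar, mimetic black was set against mimetic white at 6 stages, the intermolt and 0, 4, 8, 11 and 16 h from head capsule slippage (HCS), the outward sign that a molt has begun. In the fourth instar, the eyespot was set against thoracic green without markings, and the V-shaped marking against abdominal green without markings, at 5 stages, the intermolt and 1, 4, 10 and 13 h from HCS. No larva was given a treatment in these labels, and the strain and the number of larvae behind each sample are not given in the sources used here. There was 1 array per stage and comparison and no dye swap, and the 2 pieces came from different body regions, so that dye, marking and body region cannot be told apart. The titles of the fourth-instar arrays name the mimetic pattern, whereas their tissue labels name the cryptic regions, which were followed here.

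The rule used the black over pale signal of these arrays, so the folds of members in the pattern that chose them are descriptions and were not tested. A fold is given per sequence, from the log2 quotient of average black and average pale signal of each probe, averaged across probes and turned back to a linear value. Signals are processed intensities, given as the geometric mean over the probes of a sequence, and they compare regions and stages of 1 sequence only. Between 78.0% and 88.5% of the P. xuthus probes were well above background in each sample, and the 75th percentile of the signals lay between 2590 and 4510 in black and between 2600 and 4720 in pale samples. The 8 and 11 h arrays of the third instar and the 4, 10 and 13 h arrays of the fourth lay on slide 1 and the others on slide 2, so that slide and stage cannot be told apart between these sets.

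Of the 36 members, 8 had a description in the tables used here. The other 28 are given by sequence identifier only, and members of the left-out families among them could not be recognised. The 8 were Px-0022 (similar to CG12164, a fruit fly gene), Px-0038 (mucin related 89F), Px-0121 (neuronal pentraxin-2), Px-0331 (ejaculatory bulb protein III) and the unknown secreted proteins Px-0134, Px-0245, Px-0255 and Px-0390. Mucins are heavily glycosylated proteins of extracellular surfaces, pentraxins are secreted proteins that assemble into rings, and the fruit fly ejaculatory bulb protein III belongs to the small chemosensory proteins. All 8 had a predicted signal peptide, against 202 of 474 sequences (42.6%) for which the tables used here gave this field. For Px-0134, Px-0245, Px-0255 and Px-0390 the description already says secreted, so their signal peptide adds nothing to it. The field was not at hand for the other 28, so no share of the members is read from these 8.

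For 4 described members a probe lay within the predicted coding sequence, and these 60-base probes show from which letters of the transcript the values were read. They are given 5′ to 3′ in lower case, as a supplementary table of the study lists them.
Px-0134 (AK401128): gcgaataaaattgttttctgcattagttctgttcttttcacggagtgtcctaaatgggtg
Px-0245 (AK401221): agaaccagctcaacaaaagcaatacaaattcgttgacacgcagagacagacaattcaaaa
Px-0255 (AK401228): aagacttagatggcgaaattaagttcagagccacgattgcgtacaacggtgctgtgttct
Px-0331 (AK401284): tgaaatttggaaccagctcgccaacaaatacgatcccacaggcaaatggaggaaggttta
The Px-0134 letters were spotted under 2 probe names, whose third-instar folds were 4.47 and 4.39. The Px-0245 probe had folds of 2.43 in the third and 2.41 in the fourth instar. The Px-0255 probe had a third-instar fold of 1.60 and the Px-0331 probe a fourth-instar fold of 1.89, so neither passed by itself, and another probe of each sequence did.

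The members shared between the patterns were AK402848, Px-0245 (AK401221) and AK401476. AK402848 was higher in black on all 16 arrays. It read 2401, 36709, 304383, 392291, 472104 and 299398 in mimetic black at intermolt, 0, 4, 8, 11 and 16 h, against 896, 5649, 85924, 119641, 109825 and 67087 in mimetic white. In the eyespot it read 6757, 20811, 473413, 708034 and 506901 at intermolt, 1, 4, 10 and 13 h, against 3087, 1661, 54866, 43491 and 39951 in thoracic green. In the V-shaped marking it read 2468, 3126, 301490, 472013 and 388045, against 1827, 498, 38802, 50767 and 33899 in abdominal green. All regions were lowest in the intermolt or at 1 h and were bright from 4 h on. The fold was 3.89 in the mimetic pattern, 12.0 in the eyespot and 9.33 in the V-shaped marking, and 1 spot of this sequence was saturated.

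Px-0245, an unknown secreted protein, had a similar fold in every marking, 2.27 in the mimetic pattern, 2.26 in the eyespot and 2.18 in the V-shaped marking. In mimetic black it read 6.94, 1385, 16300.1, 42462, 34327 and 214 over the 6 stages, against 7.68, 216, 7965, 21706, 11618 and 90.4 in mimetic white. The intermolt signals were not well above background in either region, and at the other 5 stages black was the higher. The eyespot gave 29.9, 589.6, 40934, 35098 and 8037, against 10.3, 330.1, 16256, 18703 and 2089 in thoracic green. The V-shaped marking gave 6.27, 714, 27123, 21705 and 3359, against 10.8, 165, 10439, 12537 and 1089.9 in abdominal green. In every region its signal was highest between 4 and 11 h.

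AK401476 met the rule in the fourth instar through the eyespot arrays. Mimetic black gave 5.55, 5.06, 467, 10717, 42614 and 5948, against 11.2, 10.3, 758, 3823, 9704 and 5458 in mimetic white, so black was the higher from 8 h on only. Eyespot signals were 6.56, 5.34, 58.2, 8157 and 2045, against 13.8, 8.60, 24.5, 3156 and 996 in thoracic green. For the V-shaped marking the signals were 4.96, 6.48, 17.9, 185 and 89.8, against 8.13, 26.2, 29.6, 343 and 153.6 in abdominal green. The V-shaped signal was below that of abdominal green on all 5 arrays, but neither was well above background at intermolt and 4 h, nor was the V-shaped signal at 1 h. The V-shaped fold was 0.530, whereas the folds in the mimetic pattern and the eyespot were 3.02 and 2.44.

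**Figure D1:**
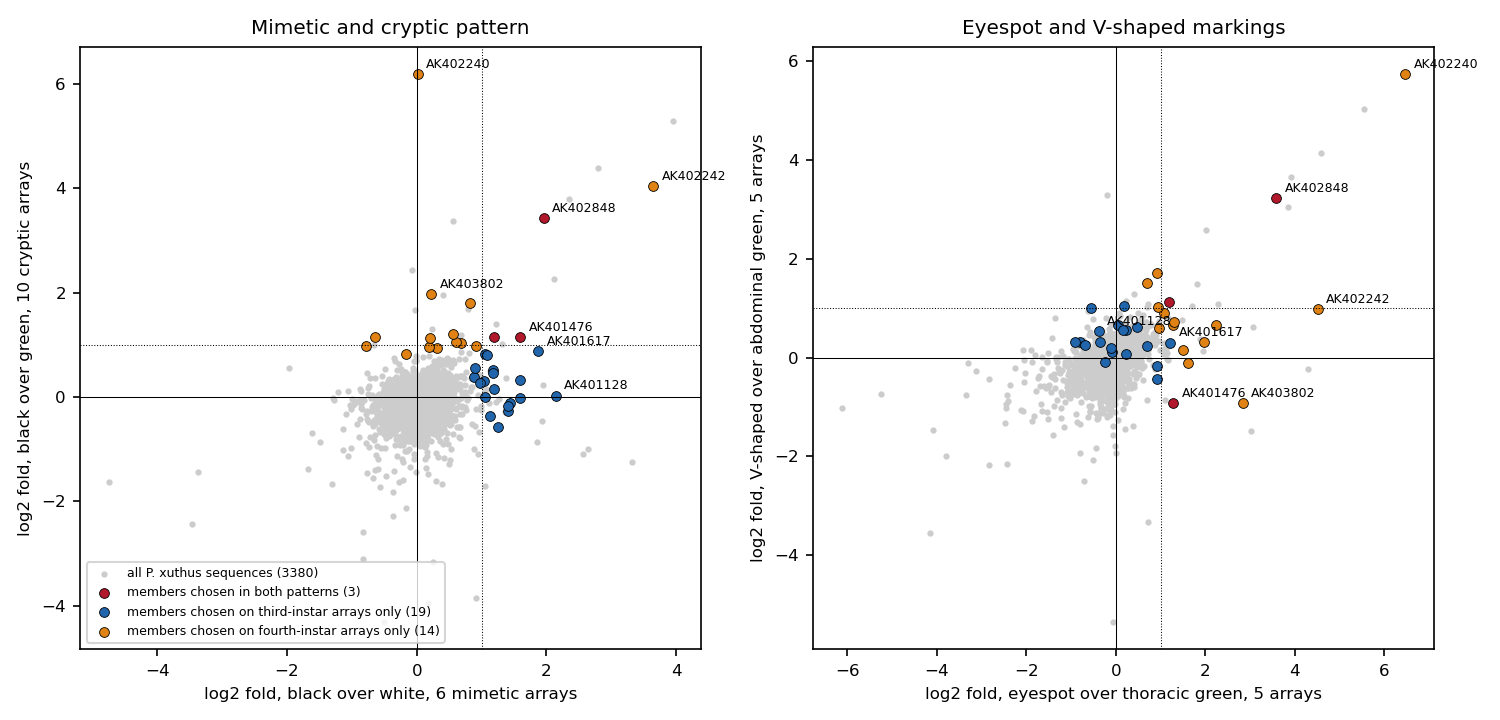
Log2 fold of black over pale for all 3380 P. xuthus sequences (grey) and the 36 members (coloured by the arrays that chose them). Left, the mimetic pattern (x axis, 6 arrays) against the cryptic pattern (y axis, 10 arrays); right, the eyespot (x axis, 5 arrays) against the V-shaped marking (y axis, 5 arrays). Dotted lines mark a 2-fold difference, and of the members only AK402848, AK401476, Px-0245 and AK402242 exceed both on the left, the last with a mean mimetic signal too low for the rule.

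Among the 22 members chosen on third-instar arrays, folds ran from 1.85 to 4.43 with a median of 2.27, and 8 were higher in black on all 6 arrays. Px-0134 (AK401128), an unknown secreted protein, had the highest of these folds, 4.43. It read 195, 7.63, 624.8, 7367, 100506 and 26218 in mimetic black, against 236, 7.21, 1021, 1901, 23496 and 3794 in mimetic white, so that black stood well above white at 8, 11 and 16 h. In the eyespot it read 353, 243, 139.7, 187007 and 179409, against 375, 263, 42.5, 278488 and 199875 in thoracic green. V-shaped epidermis gave 201, 93.2, 319, 216812 and 189497, against 216, 150.5, 25.4, 167630 and 111504 in abdominal green. At 10 and 13 h of the fourth molt this sequence was therefore bright in green as well as in black epidermis, lower in the eyespot than in thoracic green and higher in the V-shaped marking than in abdominal green.

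Px-0121 (AK401115), described as neuronal pentraxin-2, had a mimetic fold of 2.71. It read 7.15, 4561, 3564, 869.9, 12107 and 1476 in mimetic black, against 7.15, 3243, 1979, 372, 1957 and 837 in mimetic white, and the largest ratio was at 11 h. In the fourth instar the direction changed with the stage. The eyespot gave 8.03, 824, 9703, 12670.1 and 7366, against 10.6, 2076, 31546, 3044 and 2331 in thoracic green. In the V-shaped marking it read 9.04, 2277, 4660.4, 8702 and 5629, against 8.89, 1943, 9735, 2562 and 2694 in abdominal green. Green was the higher at 4 h in both comparisons and black at 10 and 13 h, and the folds over all stages were 0.785 in the eyespot and 1.25 in the V-shaped marking.

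The remaining described members of this set, Px-0255 and Px-0022, had folds just under 2 over all their probes. Px-0255 (AK401228), an unknown secreted protein, passed on 1 of 4 probes with a fold of 1.86 over all of them, and read 559, 124, 2937, 41616, 106430 and 51520.1 in mimetic black, against 736, 63.1, 4835, 25557, 59392 and 18402 in mimetic white. Eyespot signals were 249.8, 59.3, 6331, 93984 and 93484, against 182, 117, 8529.8, 93358 and 69737 in thoracic green. The V-shaped marking gave 263, 123, 4705, 101913 and 98442, against 118, 920.1, 3299, 54120 and 41423 in abdominal green. It was thus a late sequence in every region, low until 1 h and highest at 10 or 11 h in the black ones.

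Px-0022 (AK401033) passed on 4 of 13 probes with a fold of 1.85 over all of them, and read 17.6, 43.0, 22723, 48929, 47084 and 3333 in mimetic black, against 16.8, 10.0, 11819, 28435, 24578 and 1623 in mimetic white. In the eyespot it read 19.4, 69.7, 77666, 121866 and 88545, against 9.32, 169.6, 102576, 105234 and 37000.1 in thoracic green. For the V-shaped marking the signals were 16.5, 75.1, 77625, 88895 and 78012, against 26.2, 112, 47609.7, 84369.5 and 34389.5 in abdominal green. Black was the higher on all 6 mimetic arrays and on 6 of the 10 cryptic arrays.

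AK401617 and AK402140, both without a description, had mimetic folds of 3.67 and 3.02. AK401617 read 7.86, 11.4, 4276, 23184, 19598 and 1192 in mimetic black, against 6.28, 12.3, 3397, 4868, 4179.9 and 634 in mimetic white. AK402140 read 11.3, 118, 986, 1942, 8749 and 29.2 in mimetic black, against 7.21, 32.7, 849, 460.3, 2544 and 16.8 in mimetic white. Neither was well above background in the intermolt, and they were highest at 8 h and at 11 h. In the fourth instar AK402140 read 46.7, 1095, 2056, 1463 and 408 in the eyespot, against 48.9, 1169, 1189.5, 2863 and 215 in thoracic green, and 25.5, 54.2, 662, 1643 and 176 in the V-shaped marking, against 16.9, 94.9, 515, 1516 and 79.9 in abdominal green. AK401741 and AK401742, each with 1 probe, read 72100 and 71200 in mimetic black at 11 h, against 23100 and 21800 in mimetic white, and their black signals differed by at most 15.3% on the 5 arrays where they exceeded 1000. Whether they are separate genes was not tested.

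The 17 members chosen on fourth-instar arrays had folds from 1.78 to 72.8 with a median of 2.21, and 2 of them, AK402848 and AK402240, were higher in black on all 10 arrays. AK402240 had the highest fold, 88.7 in the eyespot and 53.0 in the V-shaped marking. It read 912, 23779, 16714, 57330.3 and 97590 in the eyespot, against 10.8, 201, 195, 477 and 1222 in thoracic green. It read 73.0, 2148, 2919.9, 29617 and 56845 in the V-shaped marking, against 16.2, 101, 26.7, 459 and 1055 in abdominal green. The mimetic black signals were 13.7, 6.41, 4.86, 36.9, 8.01 and 22.1, against 10.8, 11.6, 7.33, 39.7, 7.17 and 13.1 in mimetic white, where 2 of 6 black and 1 of 6 white signals stood well above background. This sequence was bright in both black markings of the cryptic pattern and at or near background in black and white mimetic epidermis alike.

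AK402242 had a fold of 22.8 in the eyespot and 1.97 in the V-shaped marking. It read 4729.5, 469.6, 4155, 18945 and 67349.8 in the eyespot, against 8.90, 373, 2655, 92.2 and 1003 in thoracic green, with the smallest ratios at 1 and 4 h. V-shaped epidermis gave 5.39, 248.2, 2379.7, 169 and 813, against 5.68, 117, 1059.8, 36.4 and 605 in abdominal green. In mimetic black it read 6.28, 101, 279, 1027, 299.8 and 15.6, against 7.07, 6.86, 22.7, 81.4, 9.31 and 9.18 in mimetic white. The mimetic fold of 12.5 was the highest of the 36 members, but the mean signal was under the minimum of the rule, and white was well above background on 1 of 6 arrays.

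AK403802 and AK401839 had their higher folds in the eyespot. AK403802 read 5.06, 532, 2432, 10888 and 11737 in the eyespot, against 7.28, 33.6, 1289, 1381 and 845 in thoracic green. In the V-shaped marking it read 5.38, 24.6, 1052, 361 and 325, against 5.66, 27.5, 1581, 963 and 779.7 in abdominal green, lower than green on all 5 arrays, although at intermolt neither was well above background. Mimetic black gave 5.58, 17.5, 11.0, 67.9, 37.2 and 35.7, against 6.05, 19.7, 16.0, 44.7, 24.96 and 40.3 in mimetic white. Its folds were thus 7.16 in the eyespot and 0.528 in the V-shaped marking, and it was dim in the mimetic pattern.

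AK401839 read 70.4, 6961, 14175, 5275 and 1349.7 in the eyespot, against 71.3, 1341, 2674, 1267 and 519 in thoracic green. The V-shaped marking gave 74.2, 1678, 3052, 735 and 401, against 56.8, 979.9, 1818, 624.6 and 264 in abdominal green. The mimetic black signals were 3112, 6599.6, 9213, 26815, 30878 and 6394, against 3203, 6512, 11426, 11181, 9903 and 4503 in mimetic white. Its folds were 4.69 in the eyespot and 1.58 in the V-shaped marking, that marking being above abdominal green on all 5 arrays, and in the mimetic pattern the largest ratios were at 8, 11 and 16 h.

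Of the 3 described members chosen in the fourth instar only, Px-0038 and Px-0390 were highest at the start of the molt and Px-0331 at its end. Px-0038 (AK401045), the mucin related 89F, read 8.08, 101103, 60.02, 17.5 and 13.4 in the eyespot, against 8.16, 51998, 48.0, 13.0 and 12.8 in thoracic green. It read 6.96, 43516, 45.7, 12.0 and 18.0 in the V-shaped marking, against 6.16, 28469, 23.8, 14.7 and 18.0 in abdominal green. In mimetic black it read 275, 58911, 173, 54.5, 13.8 and 19.2, against 123, 66039.8, 288, 46.003, 10.7 and 17.4 in mimetic white. Nearly all its signal fell on the arrays at 0 h or 1 h from HCS, the next stage sampled being 4 h. At 0 h of the third molt white was slightly the higher. Of its 6 probes 1 passed, and the fold over all probes was 1.78.

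Px-0331 (AK401284), the ejaculatory bulb protein III, read 8079, 167, 4417, 112997 and 253211 in the eyespot, against 14591, 41.4, 379, 51926 and 88758 in thoracic green. It read 4627, 52.1, 1792, 62579 and 145417 in the V-shaped marking, against 5078, 62.3, 162, 42483 and 88379 in abdominal green. In both comparisons the ratio was largest at 4 h, before the signal reached its highest level. Mimetic black gave 2689.8, 318, 193, 3685, 41583 and 48677, against 3377, 134, 224.3, 1706, 23053 and 32172 in mimetic white, again highest at the end of the molt.

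Px-0390 (AK401319), an unknown secreted protein, read 296, 2554, 49.3, 24.8 and 34.1 in the eyespot, against 225, 683, 30.7, 35.5 and 57.5 in thoracic green. For the V-shaped marking the signals were 183, 545, 50.7, 31.3 and 133, against 149, 479.8, 24.9, 20.8 and 73.1 in abdominal green. The mimetic black signals were 347, 666, 39.6, 45.2, 23.5 and 23.9, against 359, 469.8, 36.2, 20.4, 17.5 and 24.0 in mimetic white. The eyespot array at 1 h was the brightest and weighed most in its fold of 1.91, and 1 of its 4 probes passed.

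**Figure D2:**
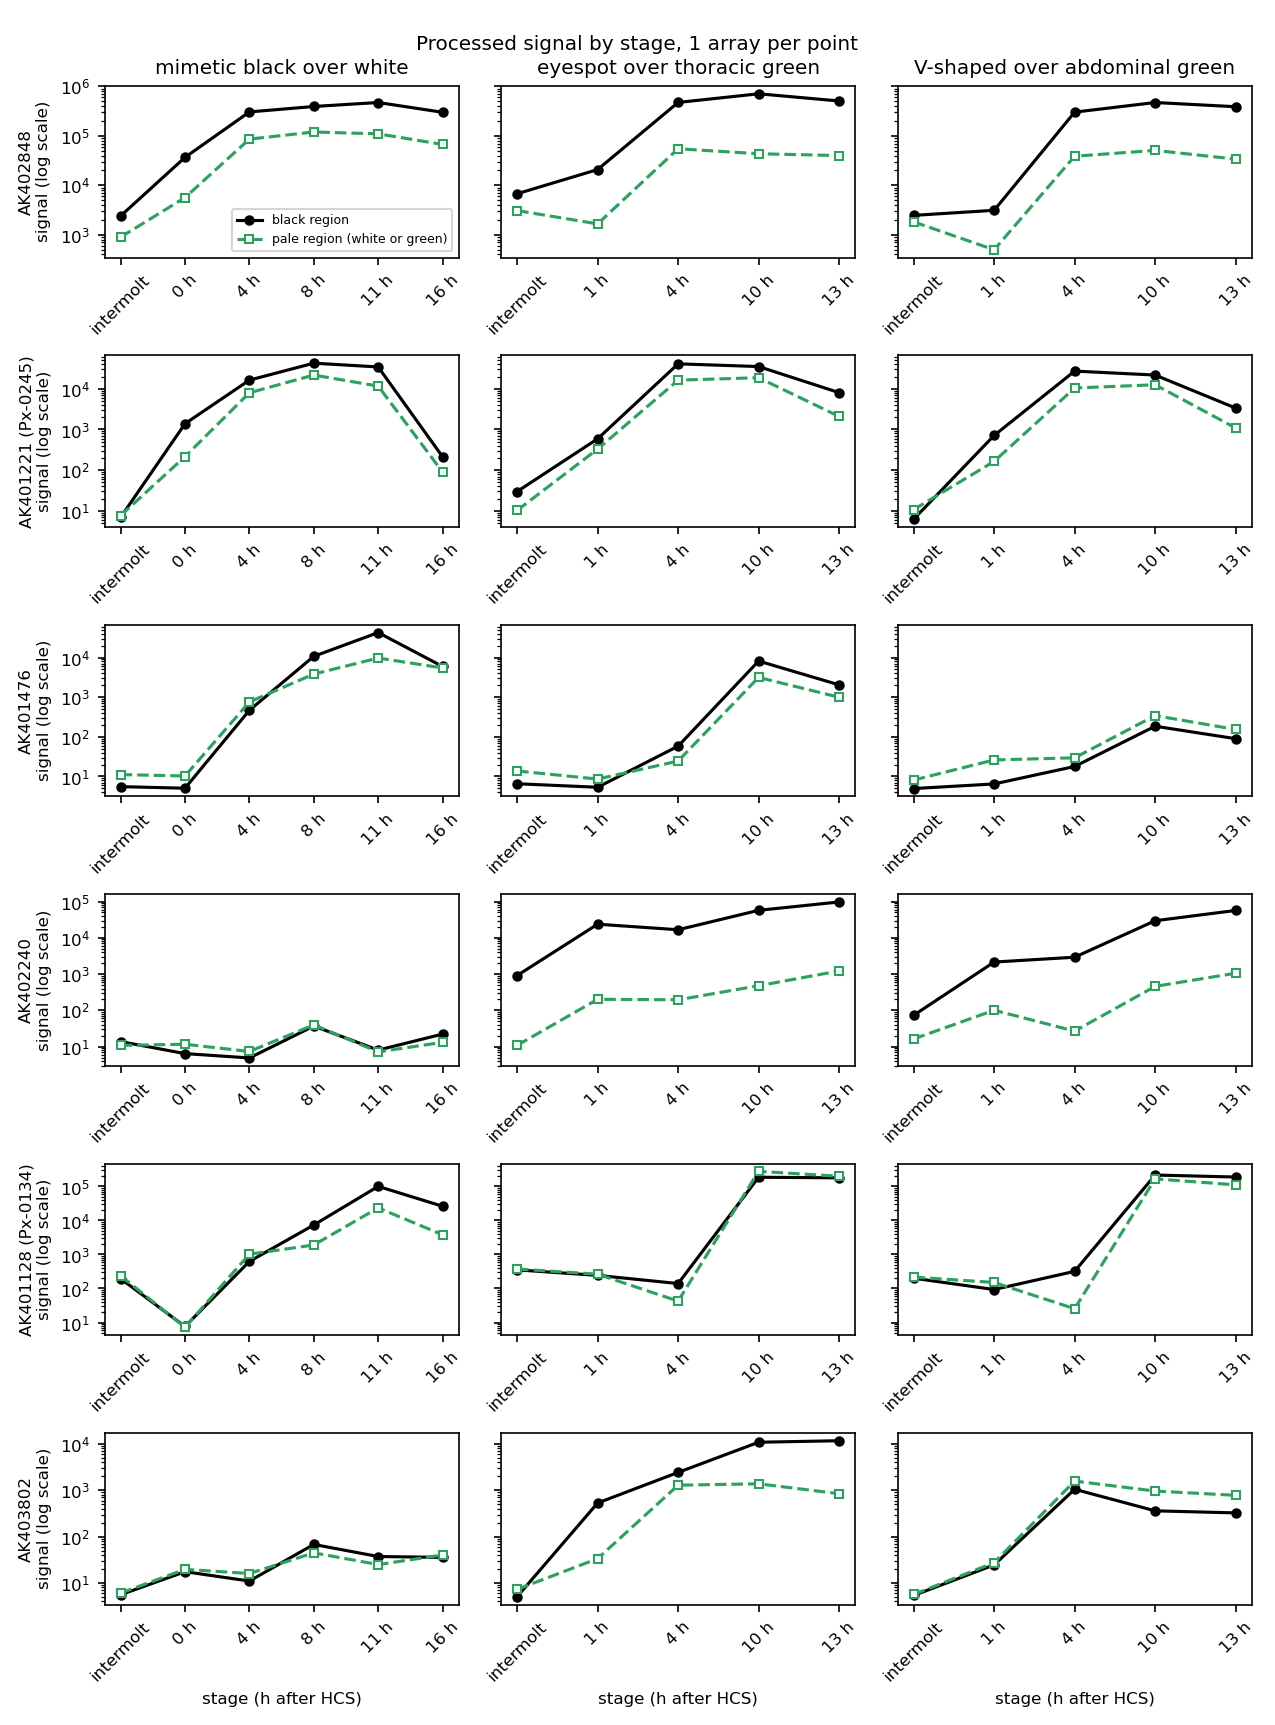
Processed signal (log scale) of 6 members by stage, from the intermolt on, in the 3 comparisons; filled circles are the black region and open squares the pale region, with 1 array per point. AK402848 lies above its pale partner at every stage, and AK402240 does so in the cryptic pattern while it stays at or under 39.7 in the mimetic pattern.

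Of the 22 members chosen in the third instar, 13 had their highest mimetic black signal at 11 h, 4 at 8 h, 2 at 4 h and 1 each at intermolt, 0 h and 16 h. Among 1632 P. xuthus sequences with a mean black signal above 1000, 18.4% were highest at 11 h and 35.8% in the intermolt. With each sample scaled by its 75th percentile the count at 11 h was again 13, against 15.1% of the sequences. In white, without this scaling, 7 of the 22 were highest at 11 h, against 20.2% of 1622 sequences with a mean white signal above 1000. Of the 22, 16 were highest at the same stage in black and white, and this was not counted over other sequences. A member had a median of 53.0% of its summed black signal on its brightest array, with a range from 31.3% to 94.6%. The rule averaged linear signals, so such an array weighed most in the choice, and 25 members were left without the 11 h array. With 1 array per stage these third-instar timings were not tested.

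Over the 22 members the median log2 ratio was 0.10 at intermolt, 1.01 at 0 h, 0.40 at 4 h, 1.45 at 8 h, 1.59 at 11 h and 0.81 at 16 h, against medians from -0.03 to -0.00 over all sequences. Black was the higher for 12 of the 22 in the intermolt and for all 22 at 8 h. Among known black-pattern genes left out of the set, yellow, laccase2 and yellow-h3 were highest in mimetic black at 8 h, with 53046, 39642 and 50237, against 6993, 10172 and 8687 in mimetic white. The 3-dehydroecdysone 3b-reductase, which acts on a precursor of the molting hormone, was highest at 11 h, with 182997 in mimetic black, against 35676 in mimetic white.

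In the fourth instar, 7 of the 17 members chosen there were highest in cryptic black at 13 h, 4 at 10 h, 3 at 4 h, 3 at 1 h and 0 in the intermolt. Of 1572 sequences above 1000, 16.4% were highest at 13 h and 31.4% in the intermolt. The rule averaged linear signals here too, so a member's brightest arrays weighed most in its choice, and these counts are a description. The median log2 ratio of the 17 was 0.40, 0.96, 0.92, 2.01 and 1.75 on the eyespot arrays in order of stage, and 0.08, 0.61, 0.83, 0.79 and 0.86 on the V-shaped arrays. Of 11 members chosen in the third instar only that were highest at 11 h in mimetic black, 8 were highest at 10 h in cryptic black, 2 at 13 h and 1 at 4 h. Of the 1572 sequences, 7.76% were highest at 10 h. How many other sequences were highest at 11 h in mimetic and at 10 h in cryptic black was not counted.

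**Figure D3:**
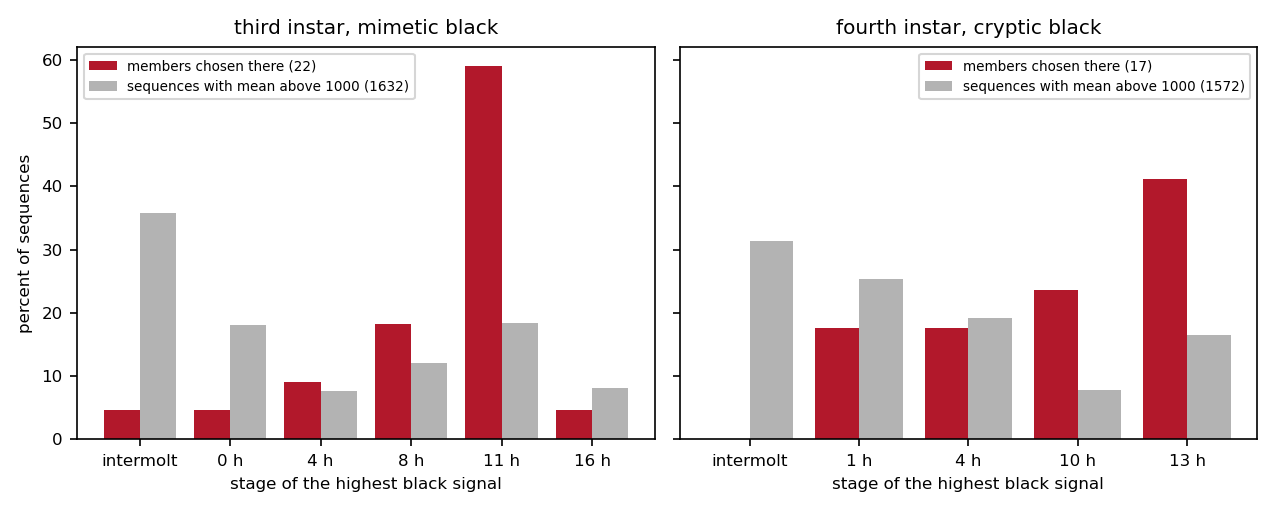
Percent of sequences by the stage of their highest black signal, for the members chosen in that instar (red) and for all P. xuthus sequences with a mean black signal above 1000 (grey). In the third instar 13 of 22 members fall at 11 h, against 18.4% of sequences, and in the fourth 7 of 17 fall at 13 h, against 16.4%. The rule averaged linear signals, so a member's brightest stage weighed most in its choice, and the shares are a description.

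The change in level during the fourth molt was taken from the mean of both channels, scaled by the 75th percentile, with the eyespot and V-shaped arrays of a stage as 2 replicates. These may share larvae, so the p-values measure the spread between arrays. The rule's signal minimum drew on these arrays, and a member chosen in the fourth instar could pass it through 1 bright stage. Tests are therefore given for the 22 members chosen on third-instar arrays, and values of the other 14 are a description. At 10 and 13 h relative to 4 h, 11 of the 22 rose and 6 fell (limma, adjusted p under 0.05), whereas 62.5% of all 3380 sequences passed, 33.6% rising and 28.9% falling. Among the 1632 sequences with a mean mimetic black signal above 1000, 68.5% passed. The median change was 0.71 log2 units for the 22, -0.07 for the 1632 and 0.13 for all sequences. The 9 members given by name here were picked after their values were seen. Px-0134 rose by 11.29 ± 0.29 (SE, adjusted p = 1.93e-06) and AK401476 by 4.70 ± 1.12 (adjusted p = 0.0112). Px-0245 had a difference of -1.29 ± 0.26 (adjusted p = 0.00593) and AK402848 one of 0.30 ± 0.41 (adjusted p = 0.546). Of those chosen in the fourth instar only, Px-0331 had 6.93 ± 0.28, AK402240 3.33 ± 0.49, Px-0038 -1.34 ± 0.28, AK402242 -1.22 ± 0.98 and AK403802 0.04 ± 0.58 log2 units. Without the eyespot array at 4 h AK401476 did not pass (adjusted p = 0.0943), and Px-0245 did not without the V-shaped array at 4 h (adjusted p = 0.0503) or on the black channel alone (adjusted p = 0.0890). Px-0038 had -0.20 with the normexp background correction.

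At the onset of the molt, at 1 h relative to the intermolt, 10 of the 22 members rose and 5 fell, whereas 66.9% of all sequences passed, 25.9% rising and 41% falling, and 74.4% of the 1632 passed. The median change was 0.39 for the 22, -0.54 for the 1632 and -0.34 for all sequences. Px-0245 rose by 4.69 ± 0.31 (SE, adjusted p = 4.5e-05), and Px-0134 had a difference of -0.995 ± 0.33 (adjusted p = 0.0370). AK402848 and AK401476 had -0.53 ± 0.47 and -0.05 ± 1.30 (adjusted p = 0.355 and 0.974). Of those chosen in the fourth instar only, Px-0038 had 12.43 ± 0.32, AK402240 3.78 ± 0.56, AK403802 3.02 ± 0.67, AK402242 2.66 ± 1.13 and Px-0331 -7.04 ± 0.32 log2 units. Without the eyespot intermolt array Px-0134 did not pass (adjusted p = 0.226), and AK402848 passed at -1.23 without the eyespot array at 1 h (adjusted p = 0.0453) and at -1.72 in the pale channel (adjusted p = 0.0136). AK403802 had 0.41 with the normexp background correction. All 12 genes of a muscle list fell in this contrast and 4 of the 12 rose at 10 and 13 h. Larval serum protein 1 gamma, made by the fat body, had -6.57 ± 0.91 in this contrast (SE, limma, adjusted p = 0.00102). At 10 and 13 h it had 2.27 ± 0.78 (adjusted p = 0.0435). The part of muscle and fat body in the members' changes was not tested.

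Whether members chosen in one pattern also differed between black and pale in the other was tested over all members chosen on the arrays of 1 instar, since those sets draw on no array of the other. Of the 22 chosen on third-instar arrays, 2 were higher in cryptic black (eyespot and V-shaped log2 ratios averaged with equal weight) and 0 lower, whereas 10.6% of all sequences passed, 4.44% higher and 6.15% lower (limma, adjusted p under 0.05), and 10.4% of the 1632. They were AK402848, at 2.84 ± 0.29 log2 units (SE, adjusted p = 5.04e-05), and Px-0245, at 1.17 ± 0.26 (adjusted p = 0.0128), both of which the rule also took in the fourth instar. AK401476, which the rule also took in the fourth instar, had -0.32 ± 0.33 (adjusted p = 0.541). The median of the 22 was 0.15. The other 19 are those that missed the rule on these 10 arrays, so 0 calls among them are largely fixed by that choice and nothing is read from this count. The cryptic log2 ratio of the 19 also had a median of 0.15, with a range from -0.57 to 1.05, against -0.03 over all sequences. It was above 0 for 42.8% of all sequences and for 15 of the 19. AK401617 alone of the 19 had an unadjusted p under 0.05, at 1.05 ± 0.36 (SE, adjusted p = 0.0726). It read 5.65, 688, 63120.2, 21137 and 11785 in the eyespot, against 6.59, 54.1, 35865, 4896 and 887 in thoracic green. It read 8.36, 13.6, 34624, 3695 and 1419 in the V-shaped marking, against 8.07, 27.6, 28353, 3049 and 803 in abdominal green. It passed with the normexp and loess normalization (adjusted p = 0.0492) and without the eyespot intermolt array (adjusted p = 0.0200), on which neither channel was well above background.

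Most of these 19 members were expressed in the fourth instar, and in 16 of them the black signal exceeded 1000 on at least 1 array there, a share not counted over other sequences. The exceptions were AK401509, AK401841 and AK402093, whose highest fourth-instar signals were 181, 347 and 246 in black, against 359, 455 and 218 in green. In the third instar their highest signals were 25239, 10363 and 31449.7 in mimetic black, against 8605, 3744 and 10835 in mimetic white. The median fourth-instar fold of the 19 was 1.201, and 6 were below 1. On slide 1, with the 4, 10 and 13 h arrays, the mean cryptic log2 ratio was above 0 for 14 of the 19, with a median of 0.39, and on slide 2 it was above 0 for 5, with a median of -0.19. The share over all sequences was not counted by slide.

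Of the 17 members chosen on fourth-instar arrays, 1 was higher in mimetic black and 0 lower, whereas 2.13% of all sequences passed, 0.769% higher and 1.36% lower (limma, adjusted p under 0.05), and 1.97% of the 1572 with a mean cryptic black signal above 1000. This was AK402848, at 1.99 ± 0.37 log2 units (SE, adjusted p = 0.0153), higher in black on all 6 arrays. It did not pass without the mimetic 0, 8 or 11 h array (adjusted p = 0.0572, 0.0528 and 0.0582). Px-0245 had 1.22 ± 0.34 (adjusted p = 0.0639) and AK401476 0.17 ± 0.42 (adjusted p = 0.875). The median of the 17 was 0.36. The other 14 missed the rule on the mimetic arrays, so their 0 calls too are largely fixed by the choice. Their median mimetic log2 ratio was 0.34, with a range from -0.28 to 2.79, against -0.02 over all sequences. It was above 0 for 46.2% of all sequences and for 11 of the 14. An unadjusted p under 0.05 was found for 2 of them, AK402242 at 2.79 ± 0.99 (SE, adjusted p = 0.138) and AK402030 at 0.76 ± 0.26 (adjusted p = 0.127). AK402030 read 1987, 1142, 1585, 7544, 3301 and 15446 in mimetic black, against 1617, 1065, 1129.8, 2803, 1249 and 8645 in mimetic white, higher in black on all 6 arrays. It missed the rule there with a highest probe fold of 1.90, and it passed the test with slide as a block (adjusted p = 0.0372). On slide 1, with the 8 and 11 h arrays, the mean log2 ratio was above 0 for 13 of the 14 members, with a median of 0.86, and on slide 2 for 10, with a median of 0.08. Shares over all sequences were not counted by slide.

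In 11 of these 14 the mimetic black signal exceeded 1000 on at least 1 array, and Px-0390, AK402240 and AK403802 did not reach it. This share too was not counted over other sequences. The median mimetic fold of the 14 was 1.204, and 3 were below 1. The lowest was 0.581 for AK403302, which read at most 5218 in mimetic black, against 12596 in mimetic white, both in the intermolt. In the eyespot at 13 h the same sequence read 204822, against 35699 in thoracic green.

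**Figure D4:**
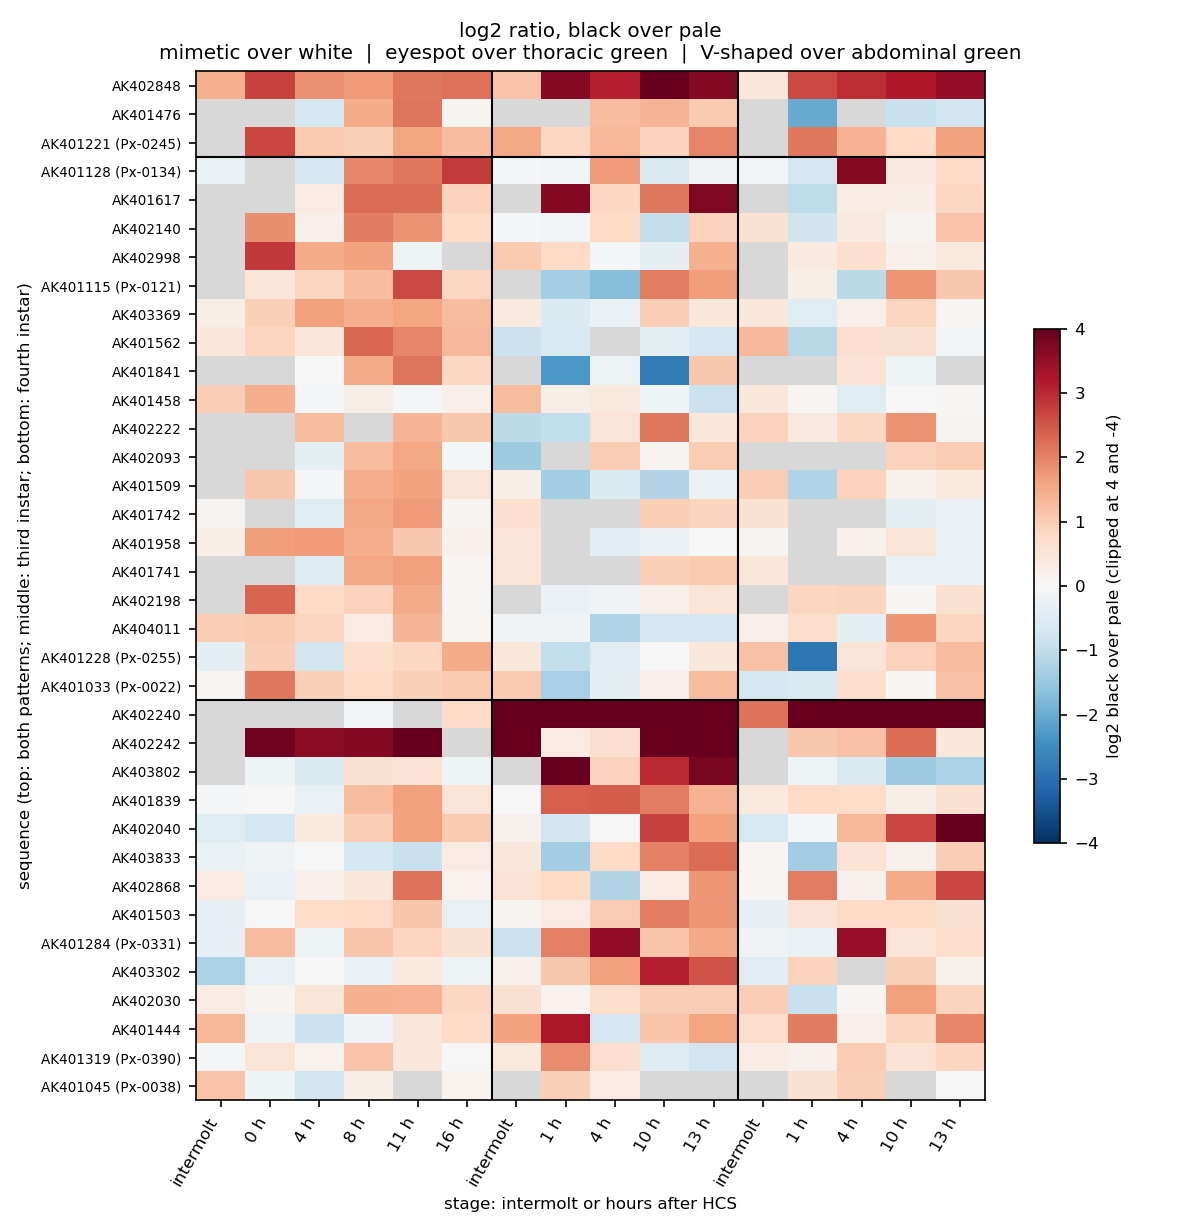
Log2 ratio of black over pale for the 36 members (rows, in blocks of 3, 19 and 14 by the arrays that chose them) on the 16 arrays (columns, by comparison and stage), clipped at 4 and -4, with grey cells where neither channel was well above background. Measured members of the upper 2 blocks are all red at 8 h of the mimetic pattern, and AK402240 is red on every cryptic array.

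How far the eyespot ratio departed from that of the V-shaped marking was tested over the members chosen on third-instar arrays. It passed for 0 of these 22 and for 0% of the 3380 sequences (limma, adjusted p under 0.05), with 4 members and 177 sequences at an unadjusted p under 0.05. A p that misses the threshold does not show that the markings were alike. Members chosen in the fourth instar could pass the rule through 1 marking, so their difference is a description. By fold, 10 of these 17 exceeded 2 in the eyespot only, 3 in the V-shaped marking only, 3 in both, namely AK402848, Px-0245 and AK402240, and 1 in neither alone. Of the 1572 sequences with a mean cryptic black signal above 1000, 16 did so in the eyespot only, 8 in the V-shaped marking only and 10 in both. The 1572 include members of the 17, so they are no separate set. The rule required a fold over 2 across both markings, so a fold over 2 in at least 1 marking is largely fixed by the choice.

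The members named for this difference were picked after their values were seen. AK403802 had 2.93 ± 0.69 log2 units more in the eyespot comparison (SE) and AK402242 3.79 ± 1.54, both chosen in the fourth instar. Without the eyespot intermolt array, on which neither channel was well above background, AK403802 had 3.62. Among members chosen in the third instar only, AK401617 differed by 1.94 ± 0.72 (SE, adjusted p = 0.823). AK404011 went the other way, at -1.20 ± 0.35 (adjusted p = 0.706). It read 283, 555, 159.8, 548 and 598 in the eyespot, against 312, 610.0, 378, 876 and 956 in thoracic green, and 384, 566, 173, 1933 and 1026 in the V-shaped marking, against 334, 349, 223, 571 and 566 in abdominal green.

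Markers of muscle, fat body and epidermis were read in the same pieces. The summed signal of 12 muscle genes ran from 581409 to 1034490 in mimetic black, against 657217 to 2046990 in mimetic white, and was higher in black on 2 of 6 arrays. In the fourth instar it ran from 248608 to 1033460 in cryptic black, against 300960 to 1088810 in green, and was higher in black on 3 of 10 arrays. None of the 12 passed the mimetic, the cryptic or the eyespot against V-shaped test (0 of 12 each). Larval serum protein 1 gamma, made by the fat body, had medians of 258 in mimetic black, against 212 in mimetic white, and 123 in cryptic black, against 181 in green. It was far brighter in the fourth-instar intermolt. There it read 92022 in the eyespot, against 69553 in thoracic green, and 49601 in the V-shaped marking, against 131225 in abdominal green. The 5 epidermal markers had median sums of 93281 in mimetic black, against 92702 in mimetic white, and 202747 in cryptic black, against 196424 in green. Array by array, their sum was higher in black on 5 of 6 mimetic and 6 of 10 cryptic arrays. The median log2 ratio of the sums over the mimetic arrays was 0.18 for the epidermal markers and -0.48 for muscle. The highest epidermal ratio, 0.56, and the lowest muscle ratio, -1.19, both fell on the mimetic 11 h array. The part of other cells in the members' ratios was not tested. In such bulk pieces fewer expressing cells and less RNA per cell cannot be told apart.

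The threshold lay within a continuous range of folds. Counting only probes with a mean black signal over 1000, the third-instar members just inside were AK404011, AK401509 and Px-0255 with highest folds of 2.00, 2.02 and 2.02, and AK401621, AK402030 and AK401416 lay just outside with 1.90, 1.90 and 1.86. In the fourth instar AK403302, AK402030 and AK401444 lay inside with 2.00, 2.02 and 2.07, and AK402175, AK401617 and AK402851 outside with 1.97, 1.92 and 1.89. Every probe passed for 19 of the 36 members, and 12 members passed on 1 of several probes. Probes are counted here by name, and some names of a sequence carry the same letters, as for Px-0134 and Px-0038. Such probes are repeat spots rather than separate readings of the transcript.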

How the data were processed

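Epidermal RNA of black (Cy5) and pale (Cy3) regions was hybridised together to 16 two-colour Agilent arrays. The deposited scanner files give spot intensities that the authors extracted with Feature Extraction (version 9.5.3.1 in the file headers), background-subtracted and dye-normalized. The deposited series table holds log10 ratios of the same arrays and served as an alternative. Well-above-background, saturation and outlier flags are deposited as a score of 0 or 1 per spot.

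Probes were averaged per sequence on the log2 scale, over 3380 P. xuthus sequences (8697 probes; 6511 other probes were not used). Log2 ratios were fitted across all 16 arrays with limma 3.58.1 in R 4.3.3, with the stages of a comparison as replicates, and p-values were adjusted over all 3380 sequences (Benjamini-Hochberg, threshold 0.05). Fourth-instar levels were the mean of both channels after 75th percentile scaling, with stage and comparison as terms. Scripts were tested on simulated data. Names came from partial supplementary tables, in which 855 probes were matched to spots through their signals (largest difference 0.498%). Values on every array are given for members shared by both patterns, the 5 with the largest fold in each pattern and those with a description. Members, lists and tests were chosen with earlier results of these data known. The number of arrays limits the precision.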

Additional observations from a re-analysis of the deposited data

Results flagged for a closer look

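Among 48 groups of 5 or 6 arrays of the members described in full, 5 held an array far from the others, and chance flags about 1 in 20 such groups. Px-0134 (AK401128) had a log2 ratio of 1.71 at 4 h in the eyespot comparison, the highest of 5 arrays, where the next was -0.09. Px-0255 (AK401228) had -2.90 at 1 h in the V-shaped comparison, the lowest of 5, where the next was 0.51. Px-0331 (AK401284) had 3.47 at 4 h in the V-shaped comparison, the highest of 5, where the next was 0.72. AK401476 had -2.01 at 1 h in the V-shaped comparison, the lowest of 5, where the next was -0.89. AK402848 had 0.43 in the intermolt of the V-shaped comparison, the lowest of 5, where the next was 2.65.

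AK404011 was higher in black on all 6 mimetic arrays, with a mean log2 ratio of 0.78, and lower in the eyespot than in thoracic green on all 5 eyespot arrays, with a mean of -0.57. The difference of 1.35 was not tested, since the rule had used the mimetic arrays.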

How the results depend on the processing

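The count of 36 members became 11 with a 3-fold limit, 99 with a 1.5-fold limit (34 of the 36 among them), 21 with geometric means over arrays (15 of the 36) and 19 when every probe had to pass. Leaving out 1 stage gave 25 to 40 members, with the lowest count without the third-instar 11 h array. Of the 22 members chosen in the third instar, the 2 cryptic calls became 1 over sequences well above background, where only AK402848 of the pair was left, and 2 to 3 with 1 array left out. Of the 17 chosen in the fourth, the 1 mimetic call became 2 with single probes as the unit, with slide as a block and with normexp and loess, and 0 to 2 with 1 array left out. Among the 19 chosen in the third instar only, the 0 cryptic calls became 1 with single probes, 1 with normexp and loess, and 0 to 1 with 1 array left out. Among the 14 chosen in the fourth only, the 0 mimetic calls became 1 with slide as a block and stayed 0 with any array left out. Over the 22 the eyespot against V-shaped test gave 0 throughout. The level counts of the 22 were 13 to 18 (10 and 13 h) and 10 to 16 (1 h) with 1 array left out. With all arrays, 62.5% and 66.9% of all sequences passed. With normexp the median 1 h change of the 36 was 0.01, against 1.15. The sets of 22 and 17 and the level alternatives with an array left out were chosen after seeing the data. Over all sequences, the 72 mimetic calls became 7 with only the mimetic arrays, 13, 16, 20 and 22 when the 8, 11, 4 or 0 h array was left out in turn and 115 when the intermolt array was, and the 358 cryptic calls became 168 with only the cryptic arrays and 211 without the eyespot 13 h array.

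Same-numbered eyespot and V-shaped arrays share a stage, and no label gives them a shared animal, batch or day. Their deviations correlated at 0.31, -0.19, 0.05, 0.35 and 0.47 from intermolt to 13 h, not above 0.1 in every pair, so the numbers were not used to pair samples. With stage as a random replicate block (consensus correlation 0.28) the calls over all sequences became 166 cryptic, 75 mimetic and 1 eyespot against V-shaped. The block left 2 cryptic calls among the 22 and 1 mimetic call among the 17. Without the comparison (eyespot or V-shaped) as a term in the level model, the level counts of the 22 were 17 and 13, against 17 and 15 with it.

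For single members, the change at 10 and 13 h turned to 0.35 (black channel only) for AK402242, and with 1 array left out it ran between -2.49 and 0.051 (without the V-shaped 4 h array). For AK403802 it turned to -0.13 without scaling, -0.37 in the pale channel, -0.14 with quantile normalization, and ran between -0.75 and 0.82 with 1 array left out, below 0 without the eyespot 4, 10 or 13 h array. The change at 1 h turned for AK401476 to 0.27 without scaling, 0.17 in the pale channel, and ran between -1.82 and 1.72 with 1 array left out, above 0 without the V-shaped intermolt or the eyespot 1 h array. It turned for AK402848 to 0.66 in the black channel, and ran between -1.23 and 0.18 (without the V-shaped 1 h array) with 1 array left out, and it turned for AK402242 to -0.12 with normexp. AK401476 and AK402848 did not pass with the reported settings in the contrast that turned. AK402242 and AK403802 were chosen in the fourth instar only, so their values are a description. At 1 h AK402242 had 2.98 without scaling, 4.54 in the pale channel, and 4.20 and 3.89 without the eyespot intermolt or 1 h array. At 10 and 13 h it had -2.78 in the pale channel. AK402848 passed at 1 h in 2 of 16 alternatives. The call for Px-0134 at 1 h was lost in 8 of 16 alternatives. The cause was not tested. Restricting the ratio tests to sequences well above background on every array left 3 and 9 of the members chosen in 1 instar only. It left 4 members for the eyespot against V-shaped test. Of the authors' log10 ratios for the P. xuthus probes, 6.3% were 0. With 1 array per stage, slide, stage and dye limit every ratio.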
